A study of Rattus norvegicus with 12 samples.

Results

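The YAP and TEAD target genes Ankrd1, Ccn1, Ccn2, F3, Nuak2, Lats2, Amotl2, Crim1, Myof and Ptpn14 were followed through an 8 h exposure of primary rat cardiomyocyte cultures to SIN-1 (3-morpholinosydnoimine), a donor of the oxidant peroxynitrite. They were taken by symbol from the annotated probes of a whole-transcript array, all 10 were found with 1 probe each, and they were tested among 18166 genes. Total RNA of wild-type cells was measured on 12 one-colour arrays, 3 each of control cells and of cells treated with SIN-1 for 70 min, 4 h or 8 h. All groups were grown in a medium with 20% fetal bovine serum and 5% horse serum. All treated times were set against the same 3 control arrays. The sources used here state neither the dose of SIN-1 nor a vehicle or culture time for the control. Replicates are described as biological triplicates, but nothing tells whether each was a separate culture, so p-values measure only the spread between these samples, which may be technical.

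YAP and TAZ are transcriptional coactivators that enter the nucleus, bind TEAD transcription factors on DNA and switch on genes of growth, adhesion and the cytoskeleton. The Hippo kinases, with LATS kinases as the last step, phosphorylate both proteins and hold them in the cytoplasm, while cell spreading, stretch and serum factors release them. In the heart the pathway is known for restraining cardiomyocyte proliferation and for its part in fibroblast activation and repair. Several target genes encode inhibitors of YAP itself, which makes the pathway a feedback loop.

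The values are log2 expression after RMA, a procedure that normalizes arrays to each other, so a difference of 1 is a doubling. A gene is called changed where the adjusted p-value of limma, a linear model fitted to all genes, was under 0.05. In whole-culture RNA, fewer cells of a type and less RNA per cell cannot be told apart. The array medians ran from 4.98 to 5.12, the highest being those of 70 min replicates 3 and 2 (5.12 and 5.11) and 4 h replicate 3 (5.09). Of 11 measured cardiomyocyte markers, 9 had control means below 5.67, the upper quartile of the 17599 probes with no listed gene, among them Myh6 at 3.99, Myh7 at 3.64, Actn2 at 4.25 and Ttn at 4.46. The others were Pln at 8.16 and Tnnt2 at 5.99. Of 10 fibroblast markers 1 was below that level, Tcf21 at 4.75. Pdgfra at 5.77, Dcn at 6.17 and Thy1 at 6.28 lay not far above it, while Col1a1 stood at 12.75 and Postn at 11.68. Below it too were 5 of 6 endothelial, 6 of 8 macrophage and 1 of 6 smooth muscle and pericyte markers. The labelled cell type was therefore not borne out by most of its sarcomere markers at the level of whole-culture RNA.

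The targets separated by the time of their lowest point. Ccn1, Amotl2, Nuak2 and Ptpn14 had their lowest means after 70 min, Ankrd1, F3 and Lats2 after 4 h, and Ccn2 was low at both times. For Nuak2, as for Ccn2, the difference between 70 min and 4 h was not called. Crim1 and Myof rose instead, with their highest means at 70 min. At 8 h no member was called different from control. Against control, 8 of 10 members were called at 70 min (6 lower, 2 higher), where 14.6% of all genes were called, 7.81% lower and 6.76% higher. At 4 h 9 of 10 were called (7 lower, 2 higher), against a background of 3.85%, 1.77% lower and 2.08% higher. At 8 h the count was 0 of 10, against 0.0275%. Most members are bright, at percentiles 90.5 to 99.1 of gene means, with Nuak2 at 56.1. Among the brighter genes alone, with means at or above the median of 5.75, 2749 were called at 70 min and 846 at 4 h. That is a larger share of fewer genes. The percentages of all genes therefore understate the background for the brighter genes, to which all 10 members belong. The members were also chosen with earlier results of these data known. Their shares are therefore a description and not a test against this background.

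**Figure D1:**
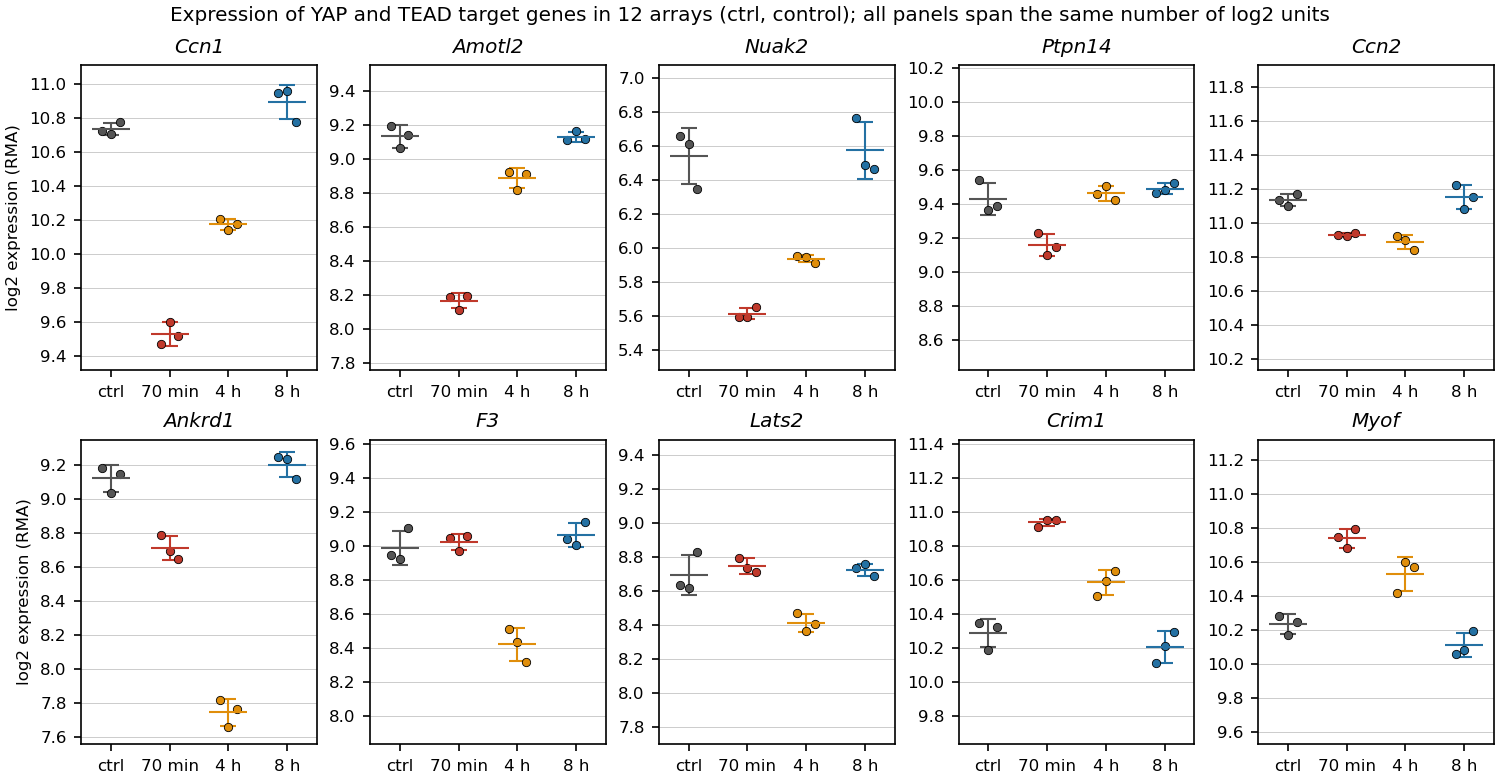
Log2 expression (RMA) of the 10 genes in each of the 12 arrays, by group; points are arrays, the long dash is the group mean and the bar its SD (n = 3). Ccn1, Amotl2, Nuak2 and Ptpn14 are lowest at 70 min and Ankrd1, F3 and Lats2 at 4 h, whereas Crim1 and Myof are highest at 70 min.

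Ankrd1 encodes a cardiac ankyrin repeat protein that binds titin in the sarcomere and also acts as a transcriptional cofactor. Its control values were 9.18, 9.03 and 9.15. They were 8.79, 8.70 and 8.65 after 70 min of SIN-1, 7.81, 7.66 and 7.76 after 4 h and 9.25, 9.24 and 9.12 after 8 h. All treated arrays at 70 min and at 4 h lay below all controls, and the 8 h arrays overlapped them. The fall was 1.33-fold at 70 min (log2 fold change -0.41 ± 0.07, SE; limma adjusted p = 6.74e-04) and 2.59-fold at 4 h (-1.37 ± 0.07; limma adjusted p = 1.36e-08). At 4 h 0 of the other genes tested had a lower fold change. The return from 4 h to 8 h was a 2.74-fold rise (1.46 ± 0.07, SE; limma adjusted p = 5.43e-09), and 0 genes rose by more in that interval. In order of level, 8 h and control did not differ beyond their spread, 70 min was lower than control, and 4 h was lower than 70 min (-0.96 ± 0.07, SE; limma adjusted p = 1.68e-07). Without the 3 arrays of highest median, which leaves 1 array at 70 min that is taken to vary like the other groups, the early fall was -0.33 and was not called (limma adjusted p = 0.0757).

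Ccn1 and Ccn2 encode secreted matricellular proteins that bind integrins and growth factors, and both are standard reporters of YAP activity. Ccn1 had control values of 10.73, 10.70 and 10.77. After 70 min they were 9.47, 9.60 and 9.52, after 4 h 10.21, 10.14 and 10.17, and after 8 h 10.95, 10.96 and 10.78. The 70 min and 4 h arrays lay below every control and did not overlap each other. Ccn1 fell 2.31-fold at 70 min (-1.21 ± 0.06, SE; limma adjusted p = 9.82e-10), where 30 genes had a lower fold change, and stood 1.48-fold lower at 4 h (-0.56 ± 0.06; limma adjusted p = 2.28e-05). Between 70 min and 4 h it rose by 0.64 ± 0.06 (SE, limma adjusted p = 1.03e-06) on the log2 scale, while Ankrd1 fell over the same interval. At 8 h all 3 Ccn1 values were above the controls, by 0.16 on average (95% interval 0.04 to 0.28), a difference that was not called (limma adjusted p = 0.828).

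Ccn2 moved less, between 10.84 and 11.22 in all 12 arrays. Controls read 11.14, 11.10 and 11.18, the 70 min arrays 10.93, 10.93 and 10.94, the 4 h arrays 10.93, 10.90 and 10.84, and the 8 h arrays 11.22, 11.08 and 11.16. It was lower by a small and steady amount at both early times, 1.15-fold at 70 min (-0.21 ± 0.05, SE; limma adjusted p = 0.0048), with a log2 fold change of -0.25 ± 0.05 at 4 h (limma adjusted p = 0.00381). The 4 h and 70 min levels were not called different (-0.04, 95% interval -0.14 to 0.05; limma adjusted p = 0.656). Without a trend in the prior variance neither fall was called (limma adjusted p = 0.0944 and 0.127), and the early call also ended without the 3 arrays of highest median (0.102) and the later one with arrays centred on their medians (0.0761).

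F3 encodes tissue factor, the cell surface receptor that starts blood coagulation. It read 8.95, 8.92 and 9.10 in controls, 9.05, 8.97 and 9.06 at 70 min, 8.51, 8.44 and 8.32 at 4 h, and 9.04, 9.01 and 9.14 at 8 h. The 4 h arrays stood below all others, and the remaining groups overlapped. At 4 h F3 was 1.48-fold lower than control (-0.57 ± 0.07, SE; limma adjusted p = 1.61e-04), whereas at 70 min the difference was 0.03 (95% interval -0.12 to 0.19; limma adjusted p = 0.811). The step from 70 min to 4 h itself passed (-0.60 ± 0.07, SE; limma adjusted p = 3.55e-05).

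Nuak2 encodes a kinase related to the energy sensor AMPK, and it had the lowest signal among the 10 genes' probes. Control values were 6.66, 6.61 and 6.35, against 5.60, 5.59 and 5.65 at 70 min, 5.95, 5.95 and 5.91 at 4 h, and 6.77, 6.49 and 6.47 at 8 h. Treated arrays at 70 min and 4 h lay below every control, and those at 8 h were spread as widely as the controls. The fall was 1.90-fold at 70 min (-0.93 ± 0.11, SE; limma adjusted p = 2.40e-05) and 1.52-fold at 4 h (-0.60 ± 0.11; limma adjusted p = 0.00447). The 70 min mean of 5.62 lay under 5.67, the upper quartile of unlisted probes, so the size of that fall is uncertain. The 70 min and 4 h arrays did not overlap, but the rise of 0.32 ± 0.11 (SE) between them was not called (limma adjusted p = 0.0983).

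Lats2, Amotl2 and Ptpn14 encode inhibitors of YAP: LATS2 is the kinase that phosphorylates it, AMOTL2 is a scaffold of the angiomotin family that binds and retains it, and PTPN14 is a tyrosine phosphatase that also binds it. These feedback genes did not move together. Amotl2 read 9.20, 9.06 and 9.14 in controls and 8.19, 8.12 and 8.20 at 70 min. It had returned most of the way at 4 h, with 8.92, 8.82 and 8.92, and read 9.11, 9.17 and 9.12 at 8 h. The fall at 70 min was 1.95-fold (-0.97 ± 0.06, SE; limma adjusted p = 2.63e-08), and 102 genes had a lower fold change. The remainder at 4 h was -0.25 ± 0.06 (SE, limma adjusted p = 0.0345). That call ended without control replicate 1, 2 or 3 (limma adjusted p = 0.179, 0.0505 and 0.113) and without 4 h replicate 1, 2 or 3 (0.0579, 0.125 and 0.0578). It also ended without a trend in the prior variance (limma adjusted p = 0.139) and with arrays centred on their medians (0.186). The rise from 70 min to 4 h was 0.72 ± 0.06 (SE, limma adjusted p = 9.95e-07). From 4 h to 8 h Amotl2 rose by 0.24 (limma adjusted p = 0.0392), and this call ended without any single array of either time (0.0542 to 0.178).

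Lats2 followed the later course. Its values were 8.63, 8.62 and 8.83 in controls, 8.80, 8.74 and 8.71 at 70 min, 8.47, 8.36 and 8.41 at 4 h, and 8.73, 8.76 and 8.69 at 8 h. The 4 h arrays lay below all others. Lats2 was 1.22-fold lower at 4 h (-0.28 ± 0.07, SE; limma adjusted p = 0.0299) and differed from control by 0.05 at 70 min (95% interval -0.09 to 0.20; limma adjusted p = 0.672). On leaving out the control arrays 1 or 3, the 4 h difference was not called (limma adjusted p = 0.0598 and 0.162), nor was it without the 4 h arrays 2 or 3 (0.099 and 0.0731). That call also ended without a trend in the prior variance (limma adjusted p = 0.118) and with arrays centred on their medians (0.173). Lats2 at 4 h was also lower than at 70 min (-0.34 ± 0.07, SE; limma adjusted p = 0.00553), a call that ended without the 3 arrays of highest median (0.118). It rose by 0.31 from 4 h to 8 h (limma adjusted p = 0.0166), which was not called without 4 h or 8 h replicate 2 (0.0702 and 0.0931).

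Ptpn14 fell at 70 min and no later. It read 9.54, 9.36 and 9.39 in controls, 9.23, 9.10 and 9.14 at 70 min, 9.46, 9.51 and 9.42 at 4 h, and 9.46, 9.48 and 9.52 at 8 h. The 70 min arrays were below all others, and the other groups overlapped. The early difference was 1.21-fold (-0.27 ± 0.06, SE; limma adjusted p = 0.0058), which was not called without the 3 arrays of highest median (-0.20; limma adjusted p = 0.234), and at 4 h it was 0.03 (95% interval -0.10 to 0.16; limma adjusted p = 0.885). The step between both times passed (0.30 ± 0.06, SE; limma adjusted p = 0.00467; 0.258 without those 3 arrays).

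Crim1 and Myof went the other way. Crim1 encodes a transmembrane protein with cysteine-rich repeats that binds bone morphogenetic proteins, and Myof encodes myoferlin, a ferlin that serves membrane repair and fusion. Crim1 values were 10.35, 10.19 and 10.33 in controls, 10.91, 10.95 and 10.95 at 70 min, 10.51, 10.60 and 10.66 at 4 h, and 10.11, 10.21 and 10.30 at 8 h. It was 1.57-fold higher at 70 min (0.65 ± 0.06, SE; limma adjusted p = 9.56e-07) and 1.23-fold higher at 4 h (0.30 ± 0.06; limma adjusted p = 0.00673). Myof values were 10.28, 10.17 and 10.25, then 10.75, 10.68 and 10.79, then 10.41, 10.60 and 10.57, and at 8 h 10.06, 10.08 and 10.19. Myof was 1.42-fold higher at 70 min (0.50 ± 0.06, SE; limma adjusted p = 1.67e-05) and 1.23-fold higher at 4 h (0.29 ± 0.06; limma adjusted p = 0.00794). For both genes the treated arrays of 70 min and 4 h lay above all controls, and the 8 h arrays overlapped them. Without control replicate 2 neither 4 h call held (limma adjusted p = 0.0537 for Crim1 and 0.0565 for Myof). With further quantile normalization the 4 h call of Myof ended (limma adjusted p = 0.0614). Both 4 h calls ended without a trend in the prior variance (limma adjusted p = 0.102 for Crim1 and 0.108 for Myof). Nor did they hold without the 3 arrays of highest median (0.0594 and 0.0528). From 70 min to 4 h Crim1 fell by 0.35 (limma adjusted p = 9.51e-04; 0.0796 without those 3 arrays), and Myof by 0.21 (0.0362), the latter not called without 70 min replicate 1 or 3 (0.066 and 0.154) or 4 h replicate 1 (0.158), nor without those 3 arrays (0.296).

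**Figure D2:**
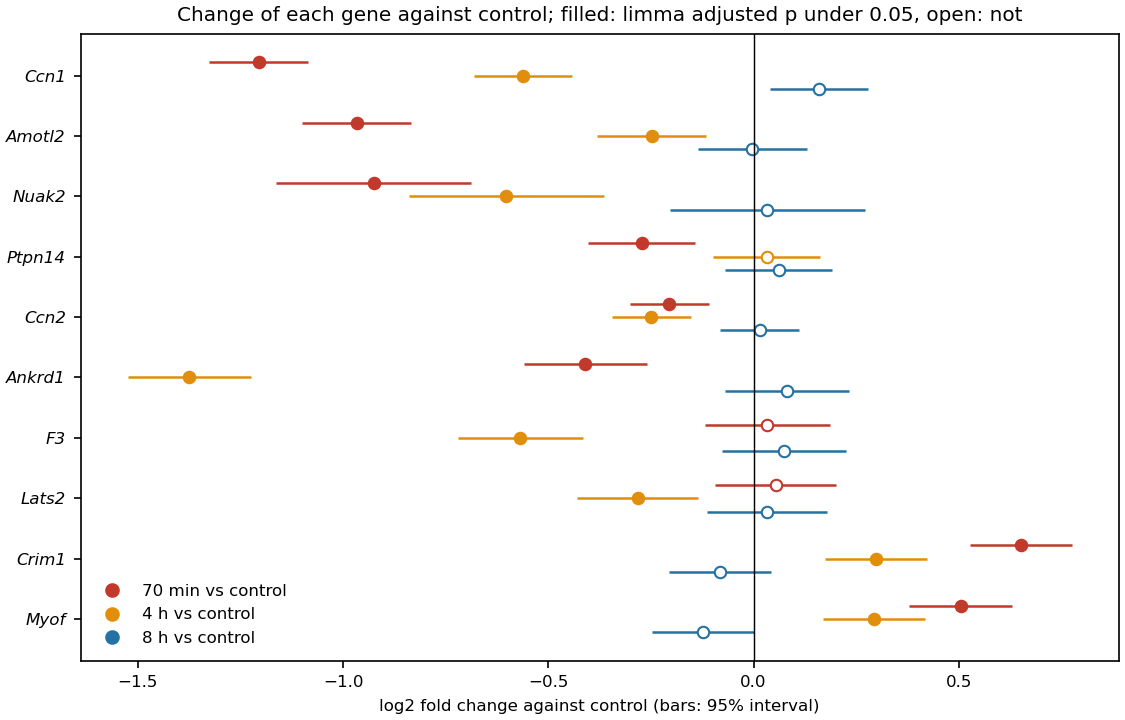
Log2 fold change of each gene against control at 70 min, 4 h and 8 h, with 95% intervals from limma; filled points passed an adjusted p under 0.05. The largest falls are Ccn1 at 70 min (-1.21) and Ankrd1 at 4 h (-1.37), and no 8 h point is filled.

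Between times, 8 of 10 members were called from 70 min to 4 h (3 higher, 5 lower), where 7.63% of all genes were called, 4.48% higher and 3.15% lower. From 4 h to 8 h 9 of 10 were called (7 higher, 2 lower), against 3.51% of all genes, 1.97% higher and 1.54% lower. From 70 min to 8 h 8 of 10 were called (6 higher, 2 lower), against 16%, 9.56% higher and 6.43% lower. Among the brighter genes alone, 1592, 813 and 2967 were called over the same intervals, again a larger share of fewer genes. These percentages of all genes too understate the background for the brighter genes. Ptpn14 was the member not called from 4 h to 8 h (0.03; limma adjusted p = 0.901). F3 and Lats2 were those not called from 70 min to 8 h (0.04 and -0.02; limma adjusted p = 0.76 and 0.883). The median log2 fold change of the 10 genes was -0.24 at 70 min, -0.27 at 4 h and 0.03 at 8 h, beside 0.03, 0.01 and 0.01 for all genes.

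At 8 h the levels of all members lay near control. Limma called 0 of 10 at an adjusted p under 0.05, 1 of 10 had an unadjusted p under 0.05, and 5.47% of all genes did. The groups were apart for 1 member, Ccn1, and for 13.2% of all genes. The fold changes ran from -0.12 for Myof (95% interval -0.25 to 0.00) to 0.16 for Ccn1. The interval of Ankrd1 was -0.07 to 0.23, so a remaining fall of the size seen at 70 min lay outside it.

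TEAD factors bind a short motif, GGAATG, known from muscle promoters as the M-CAT element. The 250 bases before the RefSeq gene start (assembly GRCr8) were at hand for 7 of the 10 genes, Ankrd1, F3 and Lats2 being the others, and 5 of the 7 held the motif on one strand or the other. These 5, Ccn1, Ccn2, Nuak2, Amotl2 and Ptpn14, are the 5 with a promoter here that were called lower at 70 min, and the 2 without the motif, Crim1 and Myof, are those called higher. Of 33469 such windows of all genes, 12.1% held the motif. The members were chosen as YAP and TEAD targets, so a share above that of all genes was to be looked for beforehand. Ankrd1, also called lower at 70 min, has no window here. The match of motif and direction rests on 7 genes and was not tested. It was complete at 70 min only. At 4 h Ptpn14, which holds the motif, was not called lower (0.03 ± 0.06, SE, limma adjusted p = 0.885). Ccn1, Ccn2, Nuak2 and Amotl2 were called lower at 4 h too, and Crim1 and Myof higher. The windows are printed for Ccn1, Amotl2 and Nuak2, which fell most at 70 min, for Ccn2, which holds the most copies, and for Crim1 and Myof, which rose, 5′ to 3′ on the gene's strand and ending at the base before the start, with the motif or its reverse complement, CATTCC, in capitals.
Ccn1: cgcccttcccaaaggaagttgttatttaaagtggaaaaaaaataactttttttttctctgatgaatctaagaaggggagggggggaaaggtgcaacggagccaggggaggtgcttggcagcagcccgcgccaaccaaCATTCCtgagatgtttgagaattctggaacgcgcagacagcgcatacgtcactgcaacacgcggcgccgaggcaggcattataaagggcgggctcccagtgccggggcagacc
Ccn2: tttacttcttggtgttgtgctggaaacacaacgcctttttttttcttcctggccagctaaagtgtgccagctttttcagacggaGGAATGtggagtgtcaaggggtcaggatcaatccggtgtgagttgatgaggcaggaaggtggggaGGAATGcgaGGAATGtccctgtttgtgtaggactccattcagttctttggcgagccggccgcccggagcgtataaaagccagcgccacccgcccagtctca
Amotl2: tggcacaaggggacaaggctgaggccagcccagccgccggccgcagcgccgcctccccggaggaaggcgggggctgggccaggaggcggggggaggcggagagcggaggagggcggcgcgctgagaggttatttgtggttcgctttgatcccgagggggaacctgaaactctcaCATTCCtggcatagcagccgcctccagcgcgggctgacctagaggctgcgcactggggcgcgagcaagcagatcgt
Nuak2: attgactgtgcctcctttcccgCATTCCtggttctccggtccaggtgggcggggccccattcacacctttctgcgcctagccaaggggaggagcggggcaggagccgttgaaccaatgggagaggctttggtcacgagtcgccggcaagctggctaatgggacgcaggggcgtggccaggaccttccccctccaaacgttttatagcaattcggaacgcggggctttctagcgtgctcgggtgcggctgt
Crim1: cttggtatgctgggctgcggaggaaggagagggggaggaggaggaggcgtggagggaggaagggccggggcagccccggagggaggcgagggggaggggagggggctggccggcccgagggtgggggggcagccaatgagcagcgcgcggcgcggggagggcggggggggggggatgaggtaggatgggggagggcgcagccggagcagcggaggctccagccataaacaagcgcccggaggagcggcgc
Myof: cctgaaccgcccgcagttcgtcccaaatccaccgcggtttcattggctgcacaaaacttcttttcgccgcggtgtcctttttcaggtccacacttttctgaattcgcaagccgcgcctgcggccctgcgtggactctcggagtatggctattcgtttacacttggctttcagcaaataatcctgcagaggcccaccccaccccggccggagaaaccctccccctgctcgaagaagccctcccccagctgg

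In GRCr8 coordinates these are chr2:237225690-237225939 for Ccn1, chr1:22624615-22624864 for Ccn2, chr8:112182376-112182625 for Amotl2, chr13:46305756-46306005 for Nuak2, chr6:22622417-22622666 for Crim1 and chr1:245234769-245235018 for Myof. The windows of Amotl2 and Nuak2 are on the plus strand and the other 4 on the minus strand. Ccn2 holds 3 copies on the gene's strand, beginning 166, 101 and 92 bases before the start, a number that 0.0807% of all windows reach or pass. Its log2 fold change at 70 min was the smallest in size among the members with a motif, a description that was not tested. Ccn1, Amotl2, Nuak2 and Ptpn14 hold 1 copy each on the opposite strand, beginning 113, 76, 228 and 135 bases before the start. The AP-1 motif TGANTCA was in 0 of the 7 windows (6.34% of all) and the CArG box bound by SRF in 0 of the 7 (1.5% of all). A match is a description of the letters, and binding was not measured.

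**Figure D3:**
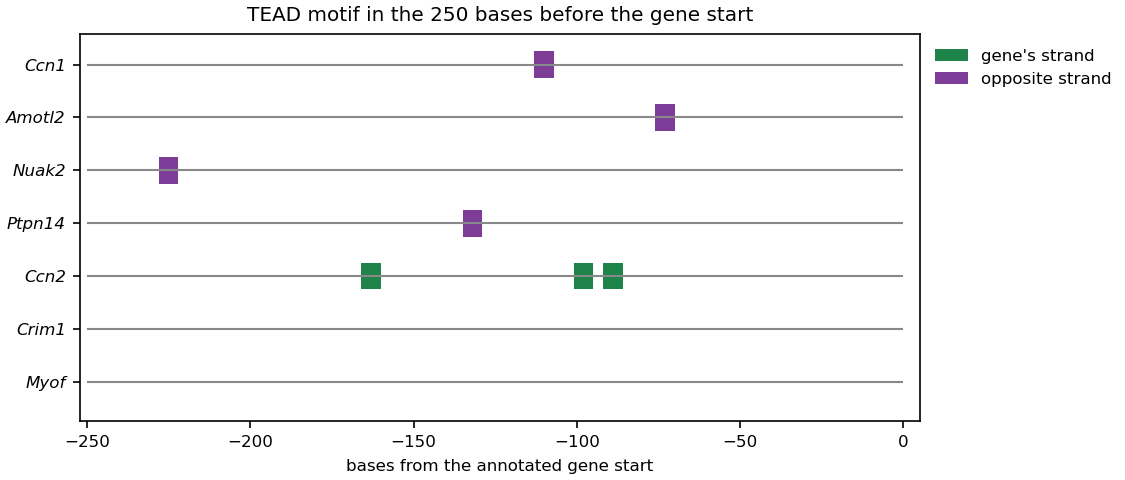
Position of the TEAD motif in the 250 bases before the start of 7 genes, in bases from the start; colour gives the strand relative to the gene. Ccn2 has 3 copies, Ccn1, Amotl2, Nuak2 and Ptpn14 have 1 each, and Crim1 and Myof have 0.

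For the gene lists that follow, the share of all genes called against control serves as background, 6.76% higher and 7.81% lower at 70 min and 2.08% higher and 1.77% lower at 4 h. The remaining genes of a published YAP and TEAD target signature showed no common course. Of 12 such genes 8 were measured, and at each of 70 min and 4 h 1 was called higher and 2 lower, with medians of -0.06 and -0.10 beside 0.03 and 0.01 for all genes. Fjx1, a secreted kinase of the planar polarity system, rose by 0.46 ± 0.11 (SE) at 70 min (limma adjusted p = 0.00733) and was lower by 0.41 ± 0.11 at 4 h (0.0421). Gadd45a, a stress-inducible growth arrest gene, took the reverse course, -0.42 ± 0.06 at 70 min (limma adjusted p = 1.63e-04) and 0.39 ± 0.06 at 4 h (0.00142). Tgfb2, a ligand of the transforming growth factor family, was lower at 4 h (-0.35 ± 0.06, SE; limma adjusted p = 0.00124), and Ccdc80 was lower at 70 min (-0.15 ± 0.05; 0.0362). Fjx1 was no longer called at 4 h when a control array was left out (limma adjusted p = 0.0677, 0.162 and 0.146 for replicates 1, 2 and 3), nor without the 4 h arrays 1 or 2 (0.17 and 0.122). For Ccdc80 the same held of the control arrays 1 and 2 (0.153 and 0.0942) and the 70 min arrays 2 and 3 (0.0558 and 0.16).

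The coactivator genes themselves were not called. Yap1 stood at 0.17 ± 0.08 (SE), 0.11 ± 0.08 and 0.13 ± 0.08 at 70 min, 4 h and 8 h against control (limma adjusted p = 0.19, 0.594 and 0.938), and Wwtr1, which encodes TAZ, at 0.14, -0.03 and -0.05 (0.139, 0.899 and 0.981). Of 8 measured genes for YAP, TAZ, TEAD factors and Vestigial-like cofactors, 1 was called higher and 2 lower at 70 min, and 0 and 1 at 4 h, with medians of 0.05 and -0.13. Vgll4, a cofactor that competes with YAP for TEAD, fell 1.53-fold at 70 min (-0.62 ± 0.10, SE; limma adjusted p = 4.42e-04), and Tead2 fell 1.49-fold (-0.57 ± 0.10; 9.35e-04), the latter not called without the 3 arrays of highest median (-0.50; 0.0707). Tead1 rose by 0.31 ± 0.09 (limma adjusted p = 0.0229), and was not called on leaving out a control array (0.0551, 0.087 and 0.0536 for replicates 1, 2 and 3) or the 70 min arrays 1 or 3 (0.0696 and 0.0784). Vgll3 was lower by 0.22 at 4 h (limma adjusted p = 0.0487), and leaving out any one control or 4 h array ended that call (0.0579 to 0.175).

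Among 19 measured genes of the Hippo kinases, their adaptors and upstream inputs, 2 were called higher and 3 lower at 70 min, and 1 higher and 2 lower at 4 h, with medians of 0.00 and -0.11. The kinase genes Stk3 and Stk4 and the adaptor gene Sav1 were not among them. Frmd6, a membrane-linked FERM protein, was 1.60-fold higher at 70 min (0.68 ± 0.10, SE; limma adjusted p = 1.10e-04) and fell by 1.08 from there to 4 h (1.27e-06), when it was lower than control (-0.40 ± 0.10; 0.0284). The adaptor gene Wwc2 was lower at both times (-0.55 and -0.39; limma adjusted p = 3.30e-04 and 0.0185), and the scaffold gene Amot, a relative of Amotl2, was lower at 70 min (-0.46 ± 0.09, SE; 0.00298). Fat1, an atypical cadherin, was higher at both (0.39 and 0.21, limma adjusted p = 4.82e-05 and 0.031). Its relative Fat4 was lower at 70 min (-0.29 ± 0.08, SE, limma adjusted p = 0.015), a call not rechecked under the alternatives. Without the 3 arrays of highest median the 70 min calls of Amot (-0.31; limma adjusted p = 0.22) and Wwc2 (-0.44; 0.0509) ended. At 4 h the call of Frmd6 ended without control replicate 1 or 3 or 4 h replicate 3 (0.103, 0.141 and 0.122). That of Wwc2 ended without control replicate 1 or 3 or 4 h replicate 1 (0.0715, 0.0905 and 0.0893). That of Fat1 ended on leaving out the control arrays 2 or 3 or the 4 h arrays 1 or 3 (0.173, 0.0833, 0.123 and 0.0851).

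Relatives of Ccn1 and Ccn2 in the CCN family went different ways. Ccn3 rose 1.57-fold at 70 min (0.65 ± 0.06, SE; limma adjusted p = 3.12e-06) and was 1.38-fold higher at 4 h (0.46 ± 0.06; 4.82e-04). Ccn5, whose protein lacks the C-terminal domain of its relatives, fell by 0.37 ± 0.07 at 70 min (limma adjusted p = 8.81e-04) and by 0.72 ± 0.07 at 4 h (9.73e-06). Ccn4 was higher by 0.21 at 70 min (limma adjusted p = 0.0187) and lower by 0.24 at 4 h (0.026), and Ccn6 was not called (0.08 and -0.11). The 70 min call of Ccn5 ended without the 3 arrays of highest median (-0.32; limma adjusted p = 0.0863). The early call of Ccn4 ended without control replicate 2 (0.0907), and the later one on leaving out the control arrays 1 or 3 (0.126 and 0.11) or the 4 h arrays 1 or 2 (0.0541 and 0.103).

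Of 7 measured relatives of Ankrd1 and partners of its protein at titin, Ankrd2, Ankrd23, Mypn, Ttn, Capn3, Casq2 and Des, limma called 0 at any time against control, and 1, 0 and 1 had an unadjusted p under 0.05 at 70 min, 4 h and 8 h. Their medians were 0.13, -0.03 and 0.10 at 70 min, 4 h and 8 h. Controls of Ankrd2 and Ankrd23 averaged 5.23 and 5.22, below the upper quartile of probes with no listed gene.

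Cytoskeletal genes driven by SRF and its MRTF coactivators, which answer to actin and overlap with YAP targets, were called 4 higher and 0 lower of 11 at 70 min (6.76% and 7.81% of all genes), and 1 higher and 3 lower at 4 h (2.08% and 1.77%), with medians of 0.14 and 0.07. Vcl, which encodes the focal adhesion protein vinculin, was 1.99-fold higher at 70 min (0.996 ± 0.04, SE; limma adjusted p = 5.14e-10) and 1.52-fold higher at 4 h (0.61 ± 0.04; 6.27e-07). Fhl2, a LIM domain cofactor, rose by 0.37 ± 0.08 at 70 min (limma adjusted p = 0.00351) and was 1.66-fold lower at 4 h (-0.73 ± 0.08; 4.06e-05). Zyx and Srf itself were lower at 4 h, by 0.50 ± 0.07 (SE, limma adjusted p = 5.72e-04) and 0.46 ± 0.09 (0.00815). Flna and Tagln were higher by 0.20 and 0.13 at 70 min (limma adjusted p = 0.00133 and 0.0313). With arrays centred on their medians the 70 min calls of Fhl2, Flna and Tagln ended (0.0542, 0.091 and 0.391), and without the 3 arrays of highest median those of Flna and Tagln (0.0567 and 0.188). The call of Srf ended without control replicate 2 (0.0519), and that of Tagln on leaving out the control arrays 1 or 2 (0.123 and 0.112) or the 70 min arrays 1 or 2 (0.0635 and 0.131).

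**Figure D4:**
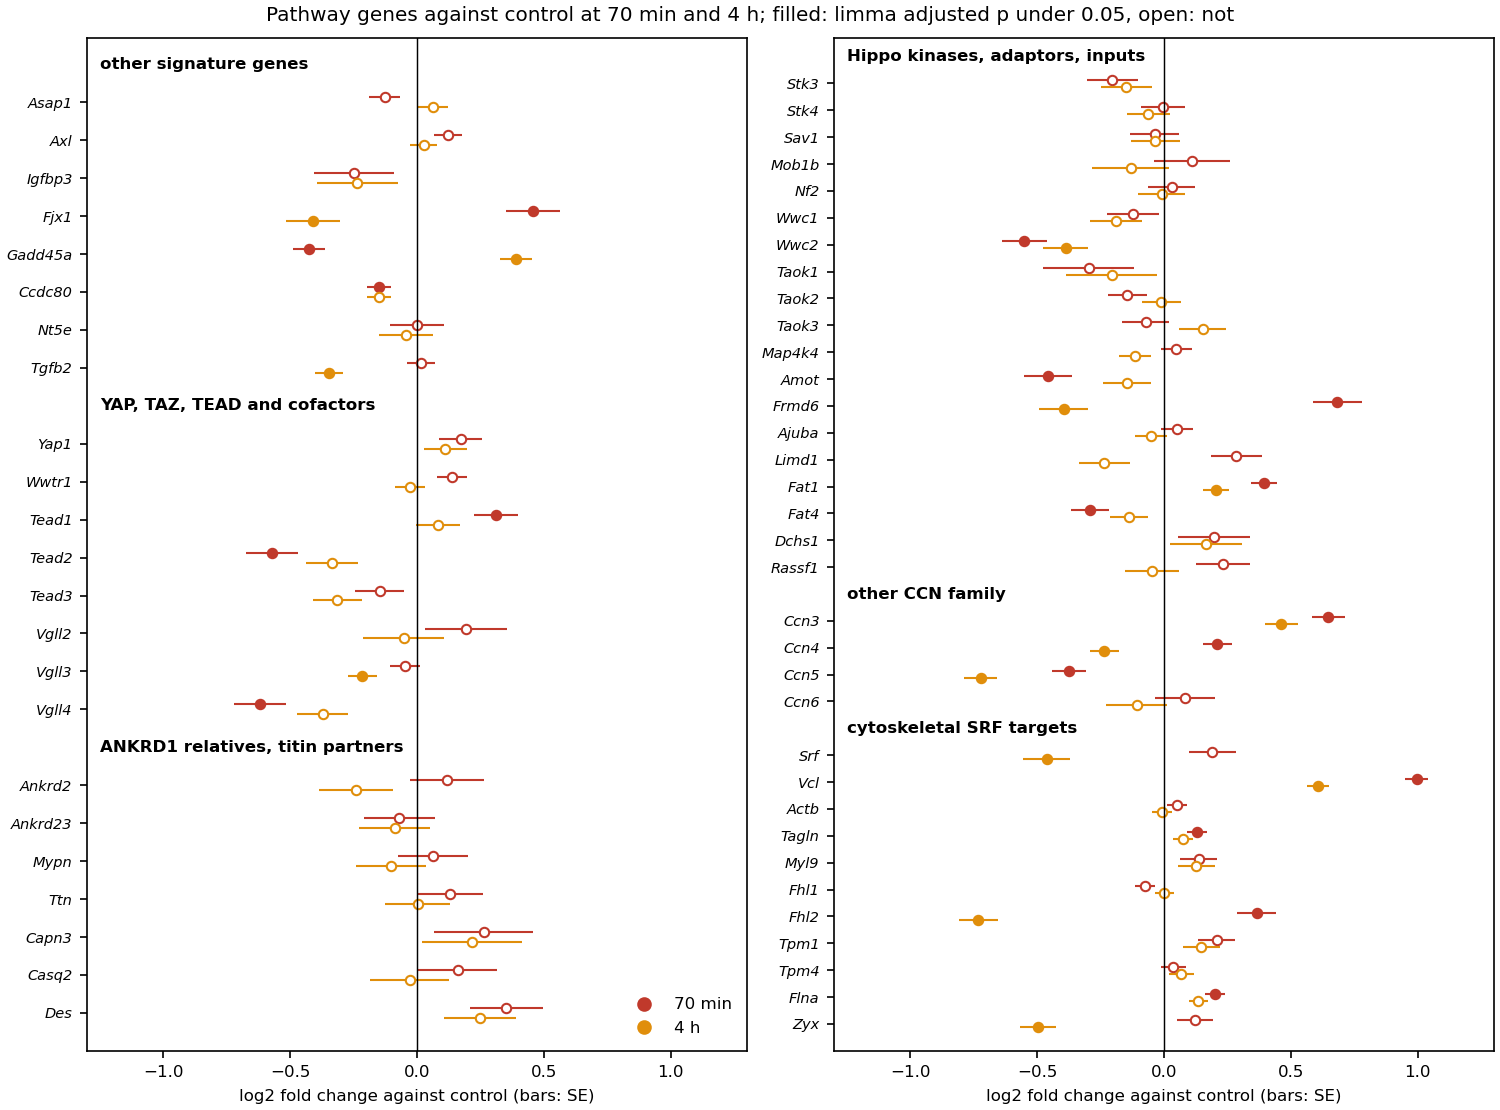
Log2 fold change against control of the measured genes of 6 lists at 70 min (red) and 4 h (orange), with SE bars; filled points passed a limma adjusted p under 0.05, and both times share the 3 controls. Vcl is highest at 70 min (0.996), Fhl2 and Ccn5 are lowest at 4 h (-0.73 and -0.72), and Yap1 is open at both times.

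Among the cell type lists, the fibroblast markers had 4 of 10 called lower at 70 min (Lum by 1.42, Dcn by 1.05, Col3a1 by 0.41, Ddr2 by 0.28), beside 7.81% of all genes, and 1 at 4 h, beside 1.77%. Ddr2 was not called on leaving out any control array (limma adjusted p = 0.121, 0.0554 and 0.129 for replicates 1, 2 and 3) or the 70 min arrays 2 or 3 (0.165 and 0.0892). The mean log2 level of that list ran from 8.67 to 8.80 in the 70 min arrays, 8.87 to 8.99 at 4 h and 9.02 to 9.16 at 8 h, against 9.04 to 9.07 in controls, and the log2 of its summed level from 14.22 to 14.29 at 70 min against 14.38 to 14.41. Smooth muscle and pericyte markers had 1 of 6 higher (Tagln) and 1 lower (Notch3) at 70 min and 2 lower at 4 h (Notch3 and Pdgfrb). Their mean levels were 8.02 to 8.10 at 4 h against 8.20 to 8.28 in controls. Both calls of Notch3 ended on leaving out any control array (limma adjusted p = 0.0564 to 0.0881 at 70 min and 0.0596 to 0.0862 at 4 h). The early one also ended without 70 min replicate 3 (0.115), the later one without 4 h replicate 2 or 3 (0.0619 and 0.0875). Endothelial markers had 1 of 6 lower at 70 min (Tek, by 0.88), beside 7.81% of all genes, macrophage markers 0 of 8 at either time by limma (2 at 70 min and 1 at 4 h had an unadjusted p under 0.05), and cardiomyocyte markers 0 of 11 at 70 min (2 by unadjusted p) and 1 lower at 4 h (Pln, by 0.44). The call of Pln ended without control replicate 1 (0.0923), without 4 h replicate 3 (0.0556) and with arrays centred on their medians (0.0711). At 70 min Dcn averaged 5.11 and Tek 5.17, under the 5.67 that marks the upper quartile of unlisted probes, so the sizes of their falls are uncertain. No marker is at 0 on this scale. The part of these markers in the changes of the YAP and TEAD targets was not tested.

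The genes most like 3 of the targets in their course over the 12 arrays were listed by Pearson correlation among 9015 brighter genes, as a description, since the arrays share 4 groups. Closest to Ankrd1 were Bmp4 (r = 0.973), the CCN family gene Ccn5 (0.951), Afap1 (0.946), Pdgfc (0.94) and Mtss2 (0.94). Bmp4, a bone morphogenetic protein, had log2 fold changes of -0.40, -0.89 and -0.12 at 70 min, 4 h and 8 h. Closest to Ccn1 were Scara5 (0.988), Fads1 (0.985), Pcnx1 (0.983), Fzd2 (0.982) and Ddah2 (0.982). Closest to Ccn2 were Tgif1 (0.975), Hs6st1 (0.962), Egr1 (0.953), Kif21b (0.951) and Dennd2b (0.951). Egr1, an immediate early transcription factor, changed by -1.38 and -1.36 at the early times, on a larger scale than Ccn2.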

How the data were processed

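Values are those the authors deposited, 36685 probes by 12 arrays; RMA in Affymetrix Expression Console 1.3.1.187 is named in the submitters' processing notes. The deposited values were taken as log2, a scale inferred from their range of 1.19 to 13.63. The sources used here name neither a genome build nor filters. RMA removes differences in total RNA and compresses folds near background. Gene names came from the platform annotation, which ties 18511 probes to a single symbol and 575, left out, to more than one. A further 17599 probes are not in it. The probe with the highest mean was kept for 291 genes with more than 1, leaving 18166 genes. Group was fitted over all arrays by limma 3.58.1 under R 4.3.3 (linear model, then empirical Bayes with a trend, 8 residual degrees of freedom), with Benjamini-Hochberg adjustment over all genes of a comparison and two-sided tests. Errors are SDs of 3 arrays or model SEs, and the number of arrays limits precision. The calculation was tested on simulated data. List genes named are those called against control, up to 4 per list and time, plus Fat4, Yap1, Wwtr1 and Tead1 (Lats1 was not tested here). Like genes are the 5 with the highest correlation. Cell type markers served as a check. The members and lists were chosen with earlier results of these data known. Alternatives were the replicate number as a block, other priors, array weights, scalings, a brightness filter, the mean of probes, the compared groups alone, a 1.5-fold minimum and left-out arrays. Sequences are RefSeq's for GRCr8, matched by symbol. Figures were drawn with matplotlib 3.10.9.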

Additional observations from a re-analysis of the deposited data

Results flagged for a closer look

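The effects of SIN-1 against control differed between times for the following genes by limma, on the log2 scale, and the values are given without a cause. The effect at 4 h minus that at 70 min was -0.96 for Ankrd1, 0.64 for Ccn1, -0.6 for F3, -0.34 for Lats2, 0.72 for Amotl2, -0.35 for Crim1, -0.21 for Myof and 0.3 for Ptpn14. The effect at 8 h minus that at 70 min was 0.49 for Ankrd1, 1.37 for Ccn1, 0.22 for Ccn2, 0.96 for Nuak2, 0.96 for Amotl2, -0.73 for Crim1, -0.63 for Myof and 0.33 for Ptpn14. The effect at 8 h minus that at 4 h was 1.46 for Ankrd1, 0.72 for Ccn1, 0.26 for Ccn2, 0.64 for F3, 0.64 for Nuak2, 0.31 for Lats2, 0.24 for Amotl2, -0.38 for Crim1 and -0.42 for Myof.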

How the results depend on the processing

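All signs of called member differences held under the 23 alternatives. Of 1020 member values recomputed, 957 stayed on the same side of the limma threshold, 63 were no longer called and 0 were newly called. The 957 include comparisons that were not called to begin with. The mean of probes could not change a member's fold, since all 10 have a single probe. Members called at 70 min, 4 h and 8 h against control, then at 4 h and 8 h against 70 min and at 8 h against 4 h, numbered 8, 9, 0, 8, 8 and 9. Leaving out 1 array gave 8 to 8, 6 to 8, 0 to 0, 7 to 8, 8 to 8 and 7 to 8. A minimum fold of 1.5 gave 4, 2, 0, 4, 5 and 4. Without the 3 arrays of highest median the counts at 70 min, at 4 h and between them were 5, 5 and 4, and without a trend in the prior variance the count at 4 h was 4; fewer arrays enter the former, and the cause of the latter was not tested. No clear pairing of arrays by replicate number was seen. Of 18 same-numbered pairs, 5 had correlated deviations over 0.1 (range -0.322 to 0.24). In 10 of 36 comparisons of an array with another group the same-numbered array was the closest. The deviations are from means of 3 arrays, so this check cannot exclude a pairing. With the replicate block the members' counts were 8, 9, 0, 8, 8 and 9. Over all genes, 699 were called at 4 h, 339 without the trend and 341 with arrays centred on their medians; 2647 at 70 min, 1046 without the 3 arrays; and 5 at 8 h, 37 with array weights. Nuak2 averaged 5.62 at 70 min, under the upper quartile of 5.67 of unlisted probes, so its signal over background was the smallest.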
